A study of Mus with 10 samples.

Results

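The common gamma chain cytokine receptors are a small family of receptor chains through which lymphocytes sense IL-2, IL-4, IL-7, IL-9, IL-15 and IL-21. Here they are the 8 genes *Il2ra*, *Il2rb*, *Il2rg*, *Il15ra*, *Il7r*, *Il4ra*, *Il21r* and *Il9r*, taken by name from the 24564 genes of the deposited count table. All 8 were listed in the table, and 7 of them had enough reads to be tested. *Il9r* had only 9 reads over all 10 libraries and was not tested.

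*Il2rg* encodes the common gamma chain (CD132), which pairs with a private chain for each cytokine and carries the kinase JAK3, while the private chains carry JAK1. Ligand binding lets the kinases phosphorylate STAT proteins, mainly STAT5 for IL-2, IL-7, IL-9 and IL-15, STAT6 for IL-4 and STAT3 for IL-21. IL-2 and IL-15 share the signaling pair of IL-2Rβ (CD122, *Il2rb*) and the gamma chain. Their alpha chains, IL-2Rα (CD25, *Il2ra*) and IL-15Rα (*Il15ra*), raise the affinity for each ligand and have little signaling function of their own. IL-15 signaling through IL-2Rβ supports NK cells and type 1 innate lymphoid cells (ILC1s), and IL-7Rα (CD127, *Il7r*) is a widely used marker of innate lymphoid cells.

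ILC1s were sorted from the livers of C57BL/6 mice, 6 to 8 weeks old by the methods of the study, with 5 libraries from *Ncr1*+/+ (wild-type) and 5 from *Ncr1* gfp/gfp (knockout) mice. The *Ncr1* gfp/gfp allele carries *gfp* in place of *Ncr1*, the gene of the activating receptor NKp46, and it is present in all cells of these mice. The 2 genotypes were gated differently, as Lin-NK1.1+NKp46+CD49b-CD49a+ cells for *Ncr1*+/+ and with GFP in place of NKp46 for *Ncr1* gfp/gfp. The study describes the sequenced material as RNA pools without giving the number of mice in a library, so the p-values measure the spread between these libraries.

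Library totals ranged from 15796253 to 22623133 counts. *Ncr1* itself had between 1913 and 2144 CPM (counts scaled to library size by TMM normalization) in wild-type libraries and between 141 and 356 CPM in knockout libraries. Of the 10 listed ILC1 markers, 9 were found in the table used here, and these 9 were detected in every library, among them *Klrb1c* (NK1.1) and *Itga1* (CD49a). *Eomes*, which marks NK cells, had a mean of 10.2 CPM in knockout and 7.10 CPM in wild-type ILC1s. Its ranges overlapped, from 5.06 to 17.7 CPM in knockout and from 5.85 to 8.35 CPM in wild-type libraries. The female-specific transcript *Xist* did not exceed 1.09 CPM and the Y-linked *Ddx3y* was at least 133 CPM in every library, so that the X-linked *Il2rg* was compared between libraries with the same pattern of sex-linked genes. Wild-type replicate 1 and knockout replicate 3 stood apart from their groups by a higher sum of hepatocyte markers, at 181 and 211 CPM. Most of that sum was *Trf*, with means of 138 CPM in wild-type and 135 CPM in knockout ILC1s. *Alb* reached at most 28.0 CPM in wild-type and 38.0 CPM in knockout libraries. Results that change without wild-type replicate 1 and knockout replicate 3 are given with both values.

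The private chains *Il2ra* and *Il7r* were lower in knockout ILC1s, to 42.5% and 51.0% of the wild-type mean, whereas the signaling chains *Il2rb* and *Il2rg* and the private chains *Il15ra*, *Il4ra* and *Il21r* were not called. A call needed a Benjamini-Hochberg adjusted p below 0.05 together with a level over 1.5 or under 0.7 times that of wild-type ILC1s, from edgeR's quasi-likelihood test. Thus 2 of the 7 tested members were called lower and 0 were called higher, and DESeq2 and limma-voom called the same genes. At an unadjusted p under 0.05, 4 members were lower and 0 higher in edgeR's quasi-likelihood test, where 5.91% of all tested genes were lower, and 3 were lower in its likelihood ratio test. Among all 11463 tested genes, 61 (0.532%) were called lower and 23 (0.201%) higher. By the adjusted p alone the same 2 members passed as lower, beside 0.785% of all tested genes. In sorted bulk cells, fewer cells that express a gene and less RNA per cell cannot be told apart.

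**Figure D1:**
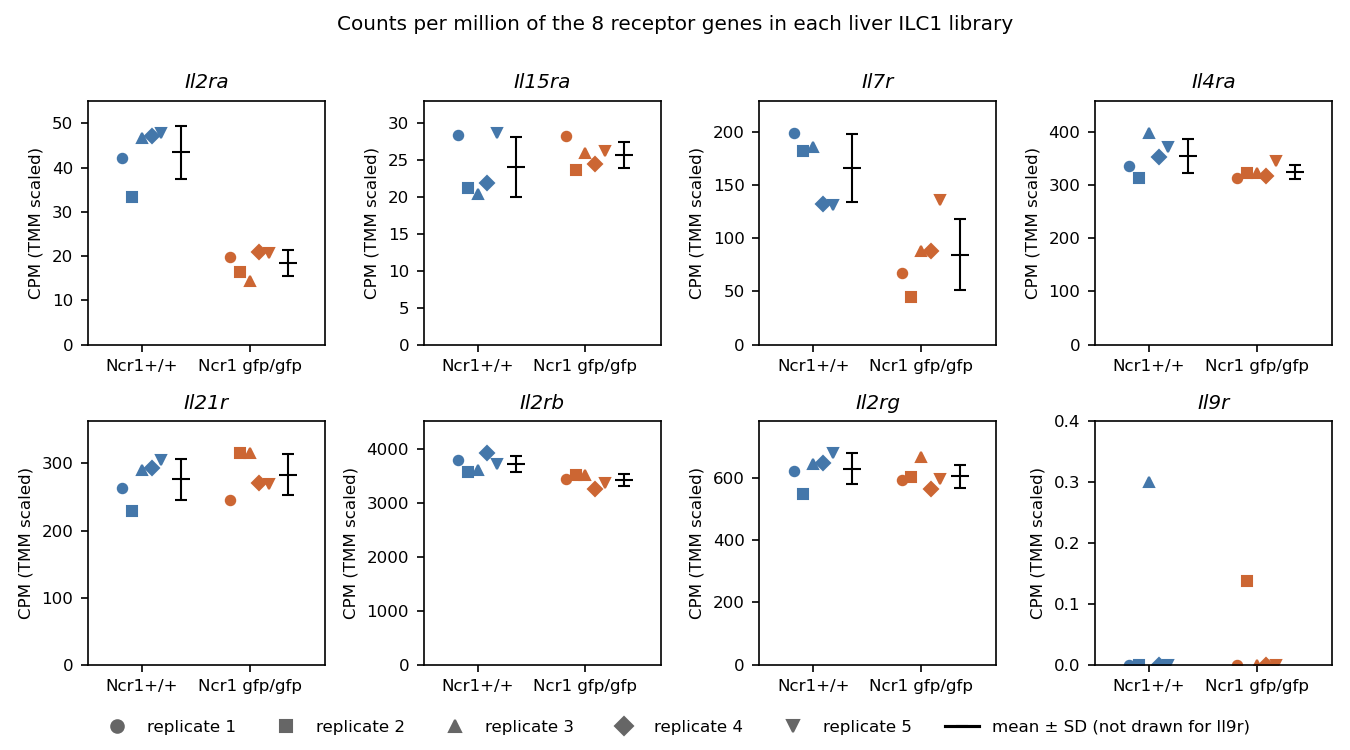
CPM (vertical axes, each from 0) of the 8 receptor genes in the 5 *Ncr1*+/+ (wild-type) and 5 *Ncr1* gfp/gfp (knockout) libraries; each symbol is a library, its shape gives the replicate number, and bars give the mean and SD. *Il2ra* and *Il2rb* are the genes whose 2 groups do not overlap, with all knockout libraries of *Il2ra* at or below 20.9 CPM and all wild-type libraries at or above 33.4 CPM.

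*Il2ra*, which encodes the alpha chain of the high-affinity IL-2 receptor, is a plus-strand gene at 11564419 to 11614821 of chromosome 2, as the deposited table gives it without naming a genome build. It had 42.1, 33.4, 46.7, 47.1 and 47.9 CPM in wild-type replicates 1 to 5 and 19.8, 16.3, 14.3, 20.9 and 20.8 CPM in knockout replicates 1 to 5. The groups were separate, and the lowest wild-type library, replicate 2, still lay above every knockout library. These values rest on between 271 and 934 reads in each library. The log2 fold change was -1.24, with a 95% interval from -1.50 to -0.97 and an adjusted p of 7.08e-06 (edgeR's quasi-likelihood test). By p-value, *Il2ra* was number 6 of the 11463 tested genes.

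*Il15ra*, the alpha chain for IL-15 and the closest relative of *Il2ra* in the family, is the next tested gene on chromosome 2. It starts 12098 bases after the end of *Il2ra* on the same strand. It had 28.4, 21.2, 20.4, 22.0 and 28.7 CPM in wild-type and 28.3, 23.7, 26.0, 24.4 and 26.3 CPM in knockout ILC1s. All 5 knockout values lay within the wild-type range. Its log2 fold change was 0.09, with a 95% interval from -0.15 to 0.34 (adjusted p = 0.849, edgeR's quasi-likelihood test). The tested gene on the other side of *Il2ra*, *Rbm17*, which encodes a splicing factor, ends 39592 bases before it and had 43.9 ± 4.03 CPM in knockout and 41.3 ± 3.81 CPM in wild-type ILC1s (SD over 5 libraries each). Its log2 fold change was 0.09 (adjusted p = 0.819, edgeR's quasi-likelihood test). The call of *Il2ra* therefore had no counterpart in the nearest tested gene on either side.

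*Il7r* encodes the private chain of the IL-7 receptor, which also serves the receptor for TSLP, and is a minus-strand gene at 9435914 to 9459631 of chromosome 15. Its level was 199, 182, 185, 132 and 131 CPM in wild-type replicates 1 to 5 and 67.2, 45.1, 87.6, 87.5 and 135 CPM in knockout replicates 1 to 5. Knockout replicate 5 lay above wild-type replicates 4 and 5, and the other 4 knockout libraries lay below every wild-type library. This is the library with the number 66 in its label, while the other 9 libraries carry numbers from 49 to 57. What that number stands for is not given, and its part in the value was not tested.

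The spread of *Il7r* was wider than that of the other tested members, with a coefficient of variation of 39.5% in knockout and 19.1% in wild-type ILC1s, against at most 16.8% for any other tested member in either genotype. The log2 fold change was -0.97, with a 95% interval from -1.37 to -0.58 and an adjusted p of 0.00773 (edgeR's quasi-likelihood test). Without knockout replicate 5 it was -1.21 (adjusted p = 0.000314, edgeR's quasi-likelihood test). Without wild-type replicate 1 and knockout replicate 3 together it was -0.92, and the adjusted p of 0.0550 no longer passed in the same edgeR test. The nearest tested genes on either side were not called. *Lmbrd2*, which ends 308707 bases before *Il7r*, differed by a log2 fold change of 0.16 (adjusted p = 0.677, edgeR's quasi-likelihood test). *Spef2*, a sperm flagellar gene 48316 bases after it, was low in both genotypes, at 4.12 ± 1.83 and 3.66 ± 1.81 CPM (SD over 5 libraries each).

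The remaining private chains with reads, *Il4ra* and *Il21r*, are neighbours on the plus strand of chromosome 7, with 23954 bases between them. *Il4ra*, the chain that binds IL-4 and, in another pairing, serves the IL-13 receptor, had 336, 313, 398, 354 and 372 CPM in wild-type and 313, 323, 322, 318 and 346 CPM in knockout ILC1s. The ranges overlapped, with 4 of the 5 knockout libraries inside the wild-type range. The log2 fold change of *Il4ra* was -0.13, which is a level 0.914 times that of wild-type ILC1s (95% interval 0.838 to 0.998), with an unadjusted p of 0.0456 and an adjusted p of 0.420 in edgeR's quasi-likelihood test. It was thus among the members that passed only without adjustment.

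*Il21r*, the receptor chain for IL-21, had 264, 229, 290.1, 294 and 306 CPM in wild-type and 246, 316, 315, 270.3 and 269 CPM in knockout ILC1s. The highest values of *Il21r* were in knockout replicates 2 and 3, and the lowest was in wild-type replicate 2. Its log2 fold change was 0.04 (95% interval -0.13 to 0.20, adjusted p = 0.929, edgeR's quasi-likelihood test). The sign of this small difference turned when any of these 3 libraries was left out.

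*Il2rb* and *Il2rg*, the pair that transmits the signal of both IL-2 and IL-15, were measured most precisely, with at least 54277 and 9347 reads in every library. *Il2rb*, on chromosome 15 from 78310979 to 78325496, had 3794, 3570.2, 3617, 3927 and 3714 CPM in wild-type and 3447, 3527, 3519.5, 3258 and 3369 CPM in knockout ILC1s. Every knockout library was below every wild-type library, by as little as 3527 against 3570.2 CPM. Of the 7 tested members, *Il2ra* and *Il2rb* had this arrangement, as did 1.82% of all tested genes. No member had it in the other direction, which was found for 1.28% of all tested genes. The size of the difference was small, at 91.9% of the wild-type mean and a log2 fold change of -0.12 (95% interval -0.20 to -0.05). By edgeR's quasi-likelihood test its adjusted p of 0.117 did not pass. With limma-voom and weights for library quality the adjusted p was 0.0465, but the fold change was too small for a call in either.

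*Il2rg*, on the X chromosome from 98459724 to 98463594, had 622, 548, 643, 648 and 679 CPM in wild-type and 594, 600.4, 665, 565 and 596 CPM in knockout ILC1s. All 5 knockout libraries lay inside the wild-type range. The log2 fold change was -0.06 (adjusted p = 0.798, edgeR's quasi-likelihood test), and its 95% interval, from -0.18 to 0.06, corresponds to a level between 0.885 and 1.04 times that of wild-type ILC1s.

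**Figure D2:**
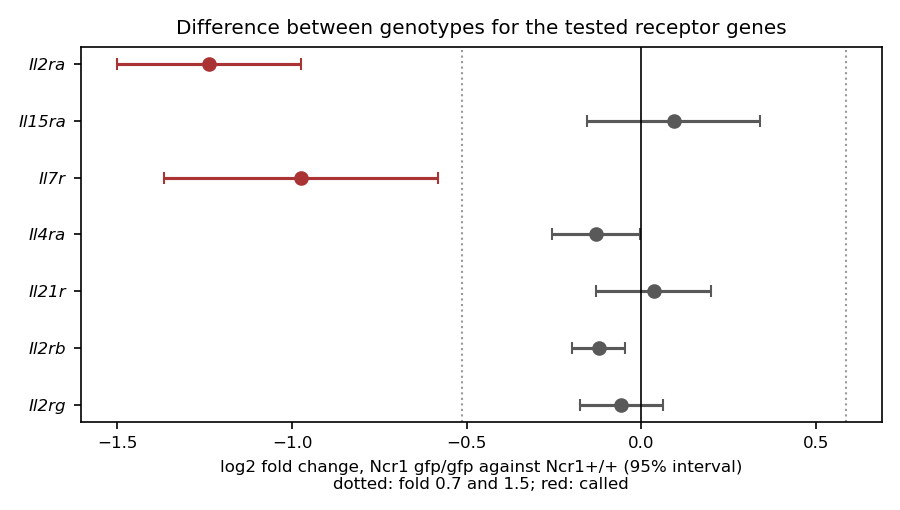
Log2 fold change of *Ncr1* gfp/gfp (knockout) against *Ncr1*+/+ (wild-type) ILC1s (horizontal axis) for the 7 tested receptor genes, with 95% intervals from edgeR's quasi-likelihood fit of 5 libraries against 5. The intervals of *Il2ra* (-1.50 to -0.97) and *Il7r* (-1.37 to -0.58) lie wholly below the dotted line at a fold change of 0.7, and those of the other 5 genes lie wholly between the 2 dotted lines.

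*Il9r*, on chromosome 11 from 32088997 to 32100279, encodes the private chain for IL-9. It had 3 reads in knockout replicate 2, 6 reads in wild-type replicate 3 and 0 in each of the other 8 libraries. A count of 0 allows up to 3 reads, which is 0.132 CPM in the deepest library, so that *Il9r* was at or near the limit of detection in both genotypes and no fold change is given. The limit covers counting error only.

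To compare the chains with each other, CPM was divided by the exon length of each gene that the table lists. The order of the levels per kilobase was the same in both genotypes. In wild-type ILC1s it ran from *Il2rb* at 1381 ± 52.8 CPM per kilobase over *Il2rg* at 378 ± 29.5, *Il21r* at 106 ± 11.8, *Il4ra* at 69.6 ± 6.42, *Il7r* at 51.7 ± 9.88 and *Il15ra* at 11.9 ± 2.01 to *Il2ra* at 9.81 ± 1.37 (SD, n = 5). *Il2rb* was thus higher per length than 99.9% of the tested genes, while *Il2ra* stood near the middle, with 46.3% of the tested genes at or below it. In knockout ILC1s *Il2ra* had 4.17 ± 0.67 CPM per kilobase (SD, n = 5), with 26.9% of the tested genes at or below it.

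The order of neighbouring chains was not equally firm. In wild-type ILC1s, *Il15ra* was above *Il2ra* in 4 of 5 libraries and their ranges overlapped, so that the levels of the 2 alpha chains did not differ beyond their spread. In knockout ILC1s, *Il15ra* was above *Il2ra* in 5 of 5 libraries, without overlap, at 3.06 times its mean. *Il4ra* and *Il7r* overlapped in range in wild-type ILC1s (ratio of the means 1.35), and in knockout ILC1s they did not (ratio of the means 2.42). In both genotypes the other neighbours in this order kept it in all 5 libraries.

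**Figure D3:**
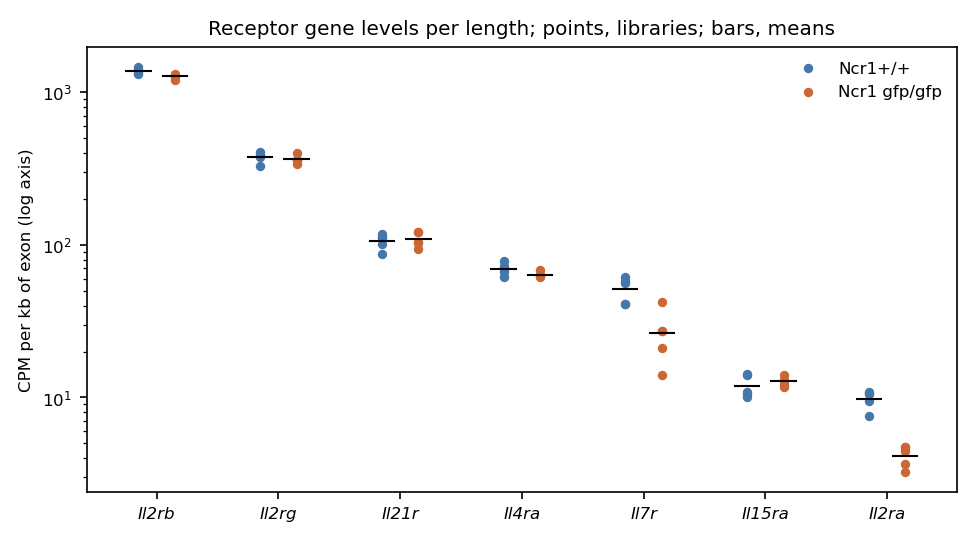
Level per length of 7 receptor genes (vertical log axis, CPM per kilobase of exon) in *Ncr1*+/+ (wild-type) and *Ncr1* gfp/gfp (knockout) libraries, with bars at the means; *Il9r*, with 0 reads in 8 libraries, is not drawn. *Il2rb* and *Il2rg* lie above 300 in every library, *Il2ra* falls from 9.81 to 4.17 on average, and *Il15ra* averages 11.9 and 12.7.

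The chains of a receptor act together, so the ratio between chains was formed within each library. Such a ratio needs no scaling between libraries and tests directly whether 2 chains differed unequally between the genotypes. Of 8 ratios, 4 differed between the genotypes in two-sided exact permutation tests with Benjamini-Hochberg adjustment over the 8 ratios. All 4 had *Il2ra* or *Il7r* as the first chain. The ratios with *Il2ra* share that gene, so they are not independent of each other. Their p-values also enter the adjustment of the *Il7r* ratio.

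*Il2ra* against *Il2rb* differed by -1.11 on the log2 scale in knockout from wild-type ILC1s (standard error 0.15, exact permutation p = 0.00794, adjusted 0.0212). Per length, wild-type ILC1s had 143 ± 20.2 *Il2rb* reads for each *Il2ra* read, and knockout ILC1s had 313 ± 63.5 (SD over 5 libraries each). *Il2ra* against *Il2rg* differed by -1.18 (standard error 0.15), and the groups were separate in both ratios, with the same p-values in the exact permutation test, the smallest that 5 libraries against 5 allow.

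The widest difference was between the adjacent alpha chain genes. The log2 ratio of *Il2ra* to *Il15ra* counts was 0.57, 0.65, 1.19, 1.10 and 0.74 in wild-type and -0.51, -0.54, -0.86, -0.22 and -0.34 in knockout ILC1s. *Il2ra* had the more reads of the 2 genes in every wild-type library and the fewer in every knockout library. The difference was -1.34 (standard error 0.16, exact permutation p = 0.00794, adjusted 0.0212), so that these adjacent genes changed unequally. Without wild-type replicate 1 and knockout replicate 3 together, the 3 ratios with *Il2ra* as first chain differed by -1.03, -1.06 and -1.32, still without overlap, and their adjusted p of 0.0762 did not pass, in an exact permutation test whose smallest p with 4 libraries against 4 is 0.0286.

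*Il7r* against *Il2rg* differed by -0.99 (standard error 0.31, exact permutation p = 0.0238, adjusted 0.0476). The groups overlapped in knockout replicate 5, at -2.14 against -2.29 and -2.37 in wild-type replicates 4 and 5. The difference kept its direction without any 1 library, between -1.18 and -0.78. The adjusted p passed only when knockout replicate 5 was left out (0.0317), and with each of the other 9 libraries left out in turn it was between 0.0635 and 0.0952 in the exact permutation test. With 4 libraries against 5, that test cannot go below 0.0159 before adjustment.

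The ratios among the remaining chains did not pass. *Il2rb* against *Il2rg* differed by -0.07 (standard error 0.05, adjusted p = 0.290 in the exact permutation test), and *Il4ra* against *Il2rg* by -0.07 (standard error 0.06, adjusted 0.294 in the exact permutation test). *Il21r* against *Il2rg* differed by 0.09 (standard error 0.06, adjusted 0.254 in the exact permutation test). *Il15ra* against *Il2rb* differed by 0.23 (standard error 0.11), in favour of *Il15ra* in knockout ILC1s, but the ranges of the genotypes overlapped and the adjusted p was 0.152 in the exact permutation test.

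**Figure D4:**
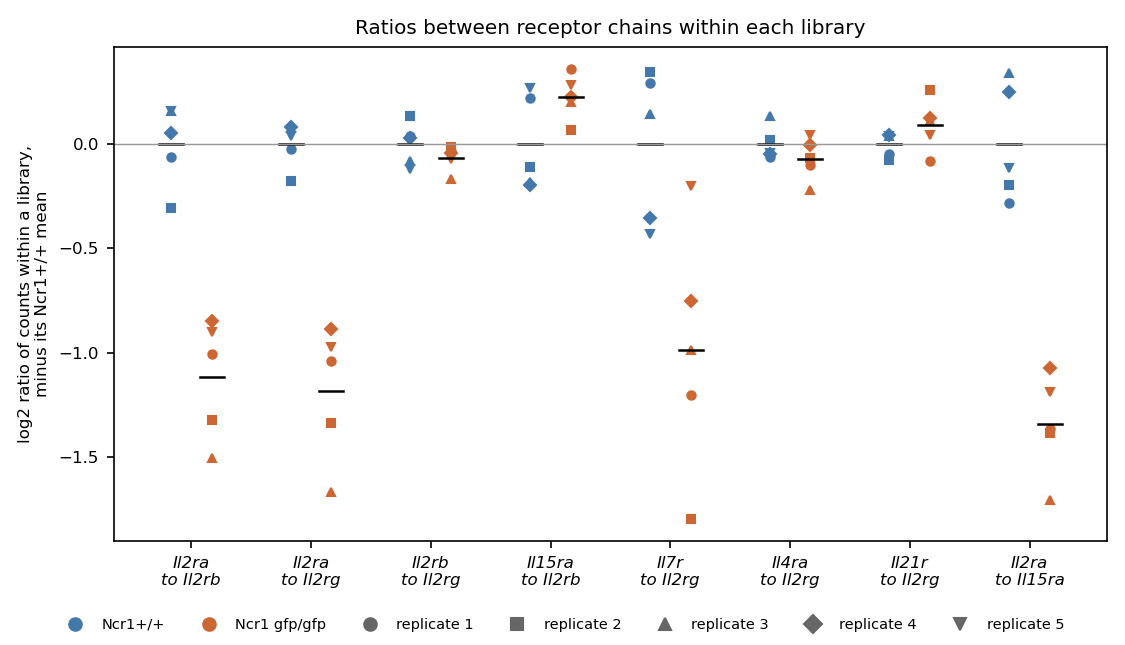
Log2 ratio of counts between 2 receptor genes within each library, shown as the difference from the *Ncr1*+/+ (wild-type) mean of that ratio (vertical axis); symbols are libraries and bars are means. The 3 ratios with *Il2ra* as first chain are separate between the genotypes, with means of -1.11, -1.18 and -1.34, whereas *Il7r* to *Il2rg* overlaps in *Ncr1* gfp/gfp (knockout) replicate 5.

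For each of the called receptor genes, the 3 tested genes with the most similar pattern were sought. Likeness was measured as the root-mean-square difference in log2 CPM over the 10 libraries, after the mean of each gene was subtracted. The median over all tested genes was 0.68 from *Il2ra* and 0.69 from *Il7r*. Since both receptor genes differed between the genotypes, their closest genes differ as well, and no test is given. A gene chosen in this way also shares high and low libraries with the receptor gene through the choice itself. Such sharing is therefore only described.

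Closest to *Il2ra* were *Il18r1*, the ligand-binding chain of the IL-18 receptor (0.18), *Psd2*, an exchange factor for ARF GTPases (0.19), and *Tmem176a*, a membrane protein gene (0.21). Like *Il2ra*, all 3 had their lowest values in knockout replicates 2 and 3, with *Il18r1* at 51.5 and 51.9 CPM there and between 79.9 and 91.3 CPM in the other knockout libraries. *Il7r* was number 101 of the 11463 tested genes in likeness to *Il2ra* (0.45).

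Closest to *Il7r* were *Pde2a*, a phosphodiesterase of cyclic nucleotides (0.21), *Cd28*, a co-stimulatory receptor (0.22), and *Slc35f2*, a solute carrier (0.25). *Cd28* had 50.6, 51.0, 42.8, 35.9 and 35.2 CPM in wild-type and 23.4, 10.2, 18.5, 29.3 and 31.5 CPM in knockout ILC1s. As for *Il7r*, knockout replicate 5 was the highest and replicate 2 the lowest of its genotype, and wild-type replicates 4 and 5 were the lowest of theirs. In *Pde2a*, too, knockout replicate 2 was the lowest and replicate 5 the highest of its genotype, at 32.5 and 82.6 CPM.

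**Figure D5:**
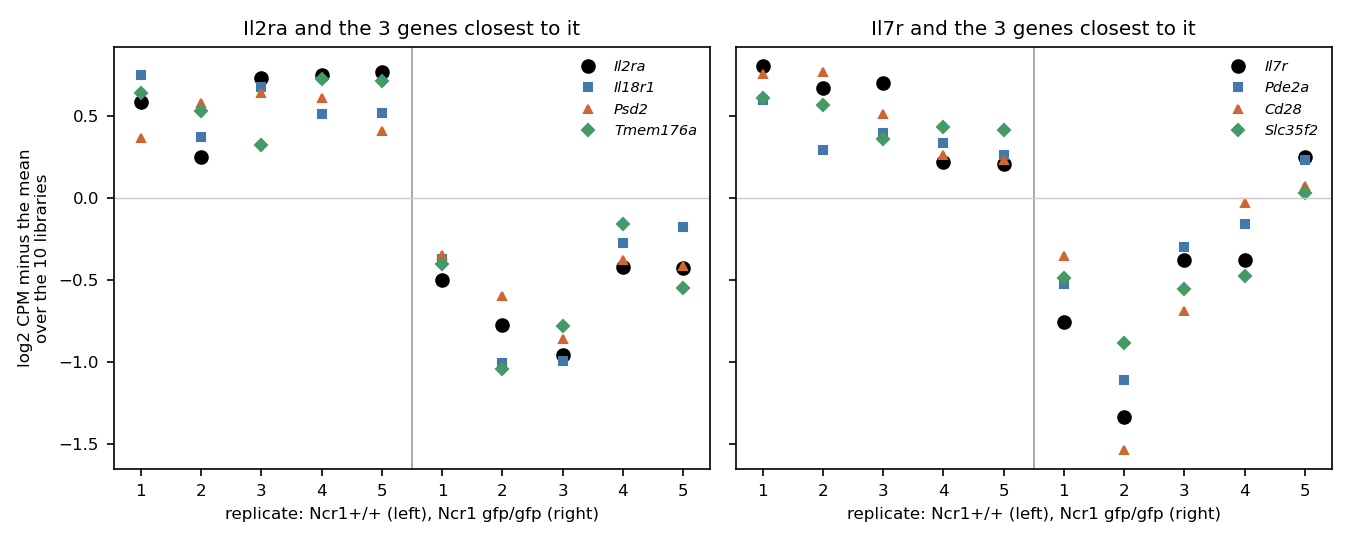
Log2 CPM minus the mean over the 10 libraries (vertical axis) for *Il2ra* and for *Il7r*, each with its 3 closest genes, in *Ncr1*+/+ (wild-type) replicates 1 to 5 (left of the line) and *Ncr1* gfp/gfp (knockout) replicates 1 to 5 (right of it). *Il2ra* is lowest in knockout replicate 3 (14.3 CPM) and *Il7r* in knockout replicate 2 (45.1 CPM), with *Il7r* of knockout replicate 5 (135 CPM) at the level of wild-type replicates 4 and 5.

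Other cell types that express these receptors could enter a sort, and markers of several were examined. Of 11 T cell markers, 8 passed the filter on low counts, and the list summed to more in knockout ILC1s, between 687 and 858 CPM, than in wild-type ILC1s, between 533 and 641 CPM. Most of this sum was *Cd3g*, at a mean of 687 CPM against 501 CPM, which passed the adjusted p without overlap but with too small a fold change for a call (log2 fold change 0.45, adjusted p = 0.00169, edgeR's quasi-likelihood test). Of the 8 tested markers, 5 had a log2 fold change above 0 and 3 below 0. Of the list, 2 genes were called higher and 1 lower, beside 0.201% and 0.532% of all tested genes. *Cd3e* had a mean of 21.1 CPM in knockout and 5.72 CPM in wild-type ILC1s, and *Cd8a* had 19.4 and 6.69 CPM. Their log2 fold changes were 1.88 and 1.53 (adjusted p = 0.00235 and 0.0248, edgeR's quasi-likelihood test). *Cd28* was the gene called lower. *Cd3d* had 13.6 CPM in knockout and 6.62 CPM in wild-type ILC1s, *Lef1* had 14.8 and 21.9 CPM, and neither was called. *Cd5*, *Cd6* and *Cd8b1* were each under 1 CPM on average. *Il7r* is commonly expressed in T cells, and the part of these cells in the results was not tested.

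Of 12 ILC2 and ILC3 markers, cells that also carry IL-7Rα, 3 passed the filter, and the list summed to between 149 and 195 CPM in knockout and between 194 and 216 CPM in wild-type ILC1s. *Gata3* made up most of the sum, and *Il5*, *Il22* and *Il17a* were at 0 in all libraries. Of the list, 1 gene was called lower and 0 higher, beside 0.532% and 0.201% of all tested genes. This was *Kit* (log2 fold change -0.76, adjusted p = 0.0290, edgeR's quasi-likelihood test), whose values overlapped between the genotypes. The part of ILC2 and ILC3 cells in the *Il7r* result was not tested. The NK cell list had 10 genes, with *Klra4* at 0. It summed to between 328 and 447 CPM in knockout and between 321 and 346 CPM in wild-type ILC1s. Of its 8 tested markers, 6 had a log2 fold change above 0 and 2 below 0. Of the list, 1 gene was called higher and 0 lower, beside 0.201% and 0.532% of all tested genes. This was *Itgam* (log2 fold change 0.96, adjusted p = 5.59e-05, edgeR's quasi-likelihood test). *Irf8*, with the highest mean of the list, was lower in knockout ILC1s, at 128 against 150 CPM. Its values did not overlap, as was so for 1.82% of all tested genes, and it was not called. The part of NK cells in the results was not tested either. The sum of the B cell list was at most 10.6 CPM in any library. That of the myeloid list was between 1669 and 1782 CPM in knockout and between 1340.1 and 1497 CPM in wild-type ILC1s. Most of it was *Itgax* (CD11c), with means of 1707 and 1401 CPM. Of the 6 tested myeloid markers, *Itgax* was the 1 with a log2 fold change above 0, and 5 were below 0. *Itgax* passed the adjusted p without overlap but with too small a fold change for a call (log2 fold change 0.28, adjusted p = 0.000539, edgeR's quasi-likelihood test). The part of myeloid cells in the results was not tested.

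The ligands, kinases, adaptors, inhibitors and targets of the pathway were examined in 6 lists with 82 genes, of which 75 were tested. Of these, 3 were called lower and 0 higher, or 4.00%, beside 0.733% of all tested genes called in either direction. The median log2 fold change over the 75 genes was 0.00, as it was over all tested genes.

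Of the ligands and partner receptor chains, 5 of 11 genes passed the filter, 0 were called by edgeR, DESeq2 or limma-voom, and 0 had an unadjusted p under 0.05. *Il2* had 6.44 ± 1.33 CPM in knockout and 6.49 ± 1.26 CPM in wild-type ILC1s, and *Il15* had 3.76 ± 1.10 and 3.49 ± 0.77 CPM (SD over 5 libraries each). *Crlf2*, the chain that joins IL-7Rα in the TSLP receptor, had 38.4 ± 4.33 and 39.7 ± 2.98 CPM (SD over 5 libraries each), with a log2 fold change of -0.05 (adjusted p = 0.923, edgeR's quasi-likelihood test), unlike *Il7r*.

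Of the 9 kinase and STAT genes, 0 were called by edgeR, DESeq2 or limma-voom. Only *Jak2* had an unadjusted p under 0.05 in edgeR (1 gene, lower), where 5.91% of all tested genes were lower. The log2 fold changes of the list lay between -0.18 and 0.05. *Jak3*, which binds the gamma chain, had 283 ± 13.5 CPM in knockout and 283 ± 17.9 CPM in wild-type ILC1s, and *Jak1*, which binds the private chains and IL-2Rβ, had 1249 ± 71.7 and 1279 ± 84.5 CPM (SD over 5 libraries each). Of the 16 tested genes of the adaptors and the PI3K and MAPK arm, 0 were called by edgeR's quasi-likelihood test, DESeq2 or limma-voom. An unadjusted p under 0.05 in edgeR was found for 3 of them. Of these, 1 was lower, beside 5.91% of all tested genes, and 2 were higher, for which no such share was counted. The likelihood ratio test of edgeR called 1 of them, *Irs2*, lower.

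Among the 12 inhibitors, 1 was called lower and 0 higher, beside 0.532% and 0.201% of all tested genes. This was *Socs3*, with a log2 fold change of -0.76 (adjusted p = 0.00404, edgeR's quasi-likelihood test). *Cish*, a STAT5-induced inhibitor that limits IL-2 and IL-15 signals, had 177 ± 36.9 CPM in knockout and 169 ± 16.2 CPM in wild-type ILC1s, and *Socs1* had 51.4 ± 8.89 and 52.4 ± 9.42 CPM (SD over 5 libraries each). Of the 17 STAT5 target genes, 2 were called lower and 0 higher, beside 0.532% and 0.201% of all tested genes. The 2 were *Pim2*, a survival kinase, and *Odc1*, an enzyme of polyamine synthesis. Their log2 fold changes were -0.75 and -0.65 (adjusted p = 0.000858 and 0.0173, edgeR's quasi-likelihood test). The survival gene *Bcl2*, a known target of IL-7 and IL-15 signals, had 782 ± 109 CPM in knockout and 709 ± 69.1 CPM in wild-type ILC1s (SD over 5 libraries each), with a log2 fold change of 0.14 (adjusted p = 0.530, edgeR's quasi-likelihood test).

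Of the 16 transcription factors known to act on *Il2ra* or *Il7r* in lymphocytes, 0 were called by edgeR, DESeq2 or limma-voom, and 5 were lower and 0 higher at an unadjusted p under 0.05 in edgeR, beside 5.91% of all tested genes that were lower. Of these, 2 had an adjusted p under 0.05 with a smaller fold change, beside 0.785% of all tested genes, namely *Runx1*, at 165 ± 18.7 CPM in knockout and 213 ± 21.2 CPM in wild-type ILC1s (SD over 5 libraries each), and *Ets1*, at 1490.4 ± 105 and 1728 ± 64.6 CPM (SD over 5 libraries each). Their log2 fold changes were -0.37 and -0.21 (adjusted p = 0.0163 and 0.0225, edgeR's quasi-likelihood test), and neither overlapped between the genotypes, as was so for 1.82% of all tested genes. *Rela* did not overlap either, at 133 ± 8.50 CPM in knockout and 154 ± 4.69 CPM in wild-type ILC1s (SD over 5 libraries each). Its log2 fold change was -0.21, and its adjusted p of 0.0994 did not pass in edgeR's quasi-likelihood test. *Foxo1*, a known activator of *Il7r*, differed by -0.07 on the log2 scale (adjusted p = 0.760, edgeR's quasi-likelihood test).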

How the data were processed

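By the methods of the study, 2 ng of RNA from sorted liver ILC1s was amplified with SMART-Seq v4 and sequenced in single reads of 51 cycles. The authors trimmed reads with Trimmomatic and FASTP, mapped them with STAR 020201 to mm10 and obtained read counts for each gene from HTSeq 0.6.0 with its defaults, which leave out reads that map to several places. The authors deposited these counts as whole numbers, without normalization, beside gene coordinates and exon lengths, and the coordinates are not those of GRCm38.

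From the deposited counts, 11463 of 24564 genes passed filterByExpr of edgeR 4.0.16 (R 4.3.3). TMM factors were applied, and genotypes were tested by quasi-likelihood without covariates, with Benjamini-Hochberg adjustment over all 11463 genes. The fit was tested on simulated data. Standard errors were derived from the F statistic. Ratios between chains had 1 count added to each gene. Members and gene lists were chosen with earlier results of these data known. Named genes are the members, called genes of the pathway lists, the 3 genes closest in pattern to each called member and the nearest tested genes by the coordinates of the table, and other genes were chosen after their values were seen. Alternatives used DESeq2 1.42.0, limma 3.58.1 and other normalizations, filters, thresholds, added counts and libraries left out. The removal of 2 libraries together was chosen after seeing the data. In a chi-square comparison no pair of libraries of a genotype was alike within sampling noise.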

Additional observations from a re-analysis of the deposited data

Results flagged for a closer look

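A library lying well outside the other 4 of its genotype was sought in 46 groups of 5 values, over the CPM of the tested receptor genes, the chain ratios and the marker sums. Of these, 2 groups had such a library, where 2.3 would be found by chance. The hepatocyte marker sum of knockout replicate 3 reached 211 CPM, where the next library had 146 CPM, and that of wild-type replicate 1 reached 181 CPM, where the next library had 146 CPM. No receptor gene and no chain ratio had a library that stood apart by this measure. *Il2ra* was 14.3 CPM in the first of these libraries, the lowest of its genotype, and *Il7r* was 199 CPM in the second, the highest of its genotype.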

How the results depend on the processing

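The 2 receptor genes called lower, *Il2ra* and *Il7r*, kept their calls when any 1 of the 10 libraries was removed and with DESeq2, limma-voom, the likelihood ratio test, other normalizations and other filters, and 0 were called higher. With an absolute log2 fold change above 1, the count was 1, since *Il7r* missed that threshold. Without wild-type replicate 1 and knockout replicate 3 together it was also 1, with *Il7r* at -0.92 (edgeR, adjusted p = 0.0550), and *Il21r* turned to -0.02. On removal of any 1 library, the log2 fold change of *Il2ra* ranged from -1.32 to -1.16, that of *Il7r* from -1.21 to -0.81 and that of *Il21r* from -0.027 to 0.082, and 3 of the 10 values of *Il21r* were below 0. The difference in the ratio to *Il2rg* ranged from -1.18 to -0.78 for *Il7r* and from -1.25 to -1.06 for *Il2ra*, and that of *Il2ra* ranged from -1.19 to -1.02 against *Il2rb* and from -1.41 to -1.25 against *Il15ra*. Without those 2 libraries together, the ratios of *Il2ra* to *Il2rb*, *Il2rg* and *Il15ra* were -1.03, -1.06 and -1.32 and that of *Il7r* to *Il2rg* -0.91. The adjusted p-values, 0.0762 for the first 3 and 0.137 for the last, were those of an exact permutation test of 4 libraries against 4 that cannot go below 0.0286 before adjustment.

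The replicate numbers are shared by both genotypes but same-numbered libraries did not deviate together (correlations between -0.02 and 0.04). With the replicate number as a block, *Il2ra* and *Il7r* had log2 fold changes of -1.24 and -1.04 in edgeR and kept their calls. For the ratios, an exact sign-flip test of same-numbered pairs cannot go below 0.0625, and with this pairing the differences of -1.11, -1.18, -1.34 and -0.99 did not pass. No ratio changed its call with 0.5 or 5 counts added, and the order of levels per length was the same with TPM over all genes. Read depth left *Il9r* untested.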

Other observations

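Cytokine receptor chains outside the gamma chain family were counted in the same way. Of 33 such genes, 19 were tested, 2 were called lower and 0 higher in knockout ILC1s, beside 0.532% and 0.201% of all tested genes. The median log2 fold change was -0.09, against -0.12 for the 7 tested gamma chain family members and 0.00 for all tested genes. The called genes were both chains of the IL-18 receptor. *Il18r1* had a log2 fold change of -1.10, and *Il18rap*, its signaling partner, had 291 ± 51.3 CPM in knockout and 442 ± 45.3 CPM in wild-type ILC1s (SD over 5 libraries each), without overlap, and a log2 fold change of -0.60 (adjusted p = 0.00145, edgeR's quasi-likelihood test). The shared IL-2 and IL-15 chains *Il2rb* and *Il2rg* had log2 fold changes of -0.12 and -0.06, and whether the partner chains of the 2 receptor types differ in this was not tested.

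Among STAT5 target genes, *Gzmb*, a granzyme, was on the other side of *Pim2* and *Odc1*, with 3071 ± 741 CPM in knockout and 2091 ± 130 CPM in wild-type ILC1s (SD over 5 libraries each). Its log2 fold change was 0.55, just under the threshold for a call (adjusted p = 0.00813, edgeR's quasi-likelihood test). The groups overlapped, with the lowest knockout library at 2199 CPM and the highest wild-type library at 2229 CPM. *Pim1*, a relative of *Pim2*, had an adjusted p of 0.00186 in the same edgeR test with a log2 fold change of -0.37, and its values did not overlap between the genotypes, as was so for 1.82% of all tested genes. Both genes were chosen after their values were seen.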
